A study of Mus musculus with 11 samples.

Results

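The complement genes described here were 9 of the 22377 genes in the table: the C1q chains C1qa, C1qb and C1qc, the components C3 and C4b, the receptors C3ar1 and C5ar1, and Itgam and Itgb2, the chains of complement receptor 3. They were taken by gene symbol, and each symbol matched 1 row. Of the 9, 8 had a mean of at least 1 CPM (a gene's reads divided by all reads of its library, times 1000000) and were tested. C3 lay below that level and is described without a test.

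Whole hippocampi of male C57BL/6N mice were profiled by CAGE, a method that captures RNA by its cap and counts reads from the 5′ ends. Photothrombosis (PT) used rose bengal (35 mg/kg) and LED light (565 nm, 200 mW, 30 min, a spot of 3.5 mm) to clot vessels of the left parietal region. Levetiracetam (LEV), an anti-seizure drug, was taken with the drinking water at 5 mg/mL. The 11 groups held 1 library each: naive mice without PT or drug, and the infarcted and the non-infarcted side at 7 d after PT, 7 d with LEV, 1 m, 1 m with LEV, and 2 m after LEV withdrawal. The series text starts LEV 1 month after PT for 2 weeks, so the timing of the drug in the 7 d LEV animals is not stated. It gives a withdrawal of 1 week, where the sample labels give 2 weeks. It names mice of 8 to 10 and of 65 to 85 weeks, and the age behind a library, the number of animals in it and whether the sides share animals are not stated. The p-values below therefore rest on the spread between these libraries, estimated in large part from other genes, and not on the spread between known animals.

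Complement is a cascade of blood and tissue proteins that tags cells, synapses and debris for removal. C1q, built from A, B and C chains, starts the classical pathway, which cleaves C4 and then C3. Fragments of C3 left on a surface are bound by complement receptor 3 of phagocytes, and the small fragments C3a and C5a signal through C3ar1 and C5ar1. In the brain, microglia are the main source of C1q and carry these receptors, while C4b is also made by other cells, astrocytes among them.

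Library totals ranged from 13382623 to 22377376 reads, so that 3 reads, the upper limit a count of 0 allows, corresponded to 0.134 to 0.224 CPM. Intervals and limits cover counting error only. All 9 hippocampal neuron markers and all 14 microglia markers were detected in every library. The first principal component held 44.9% of the variance and parted the 6 libraries of 7 d and 2 m from the 5 naive and 1 m libraries. This split cannot be told apart from time after PT.

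All 8 tested genes were highest in the PT 7 d infarcted library, and over all tested genes 10.3% were. The difference between sides, infarcted minus non-infarcted on the log2(CPM + 1) scale, had a median over the 8 of 1.56 at PT 7 d, against 0.04 over all tested genes. It was 0.54 at 7 d with LEV, 0.08 at 1 m, 0.20 at 1 m with LEV and 0.10 at 2 m. All 8 lay above 0 in both 7 d conditions, 6 at 1 m, 7 at 1 m with LEV and 6 at 2 m.

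**Figure D1:**
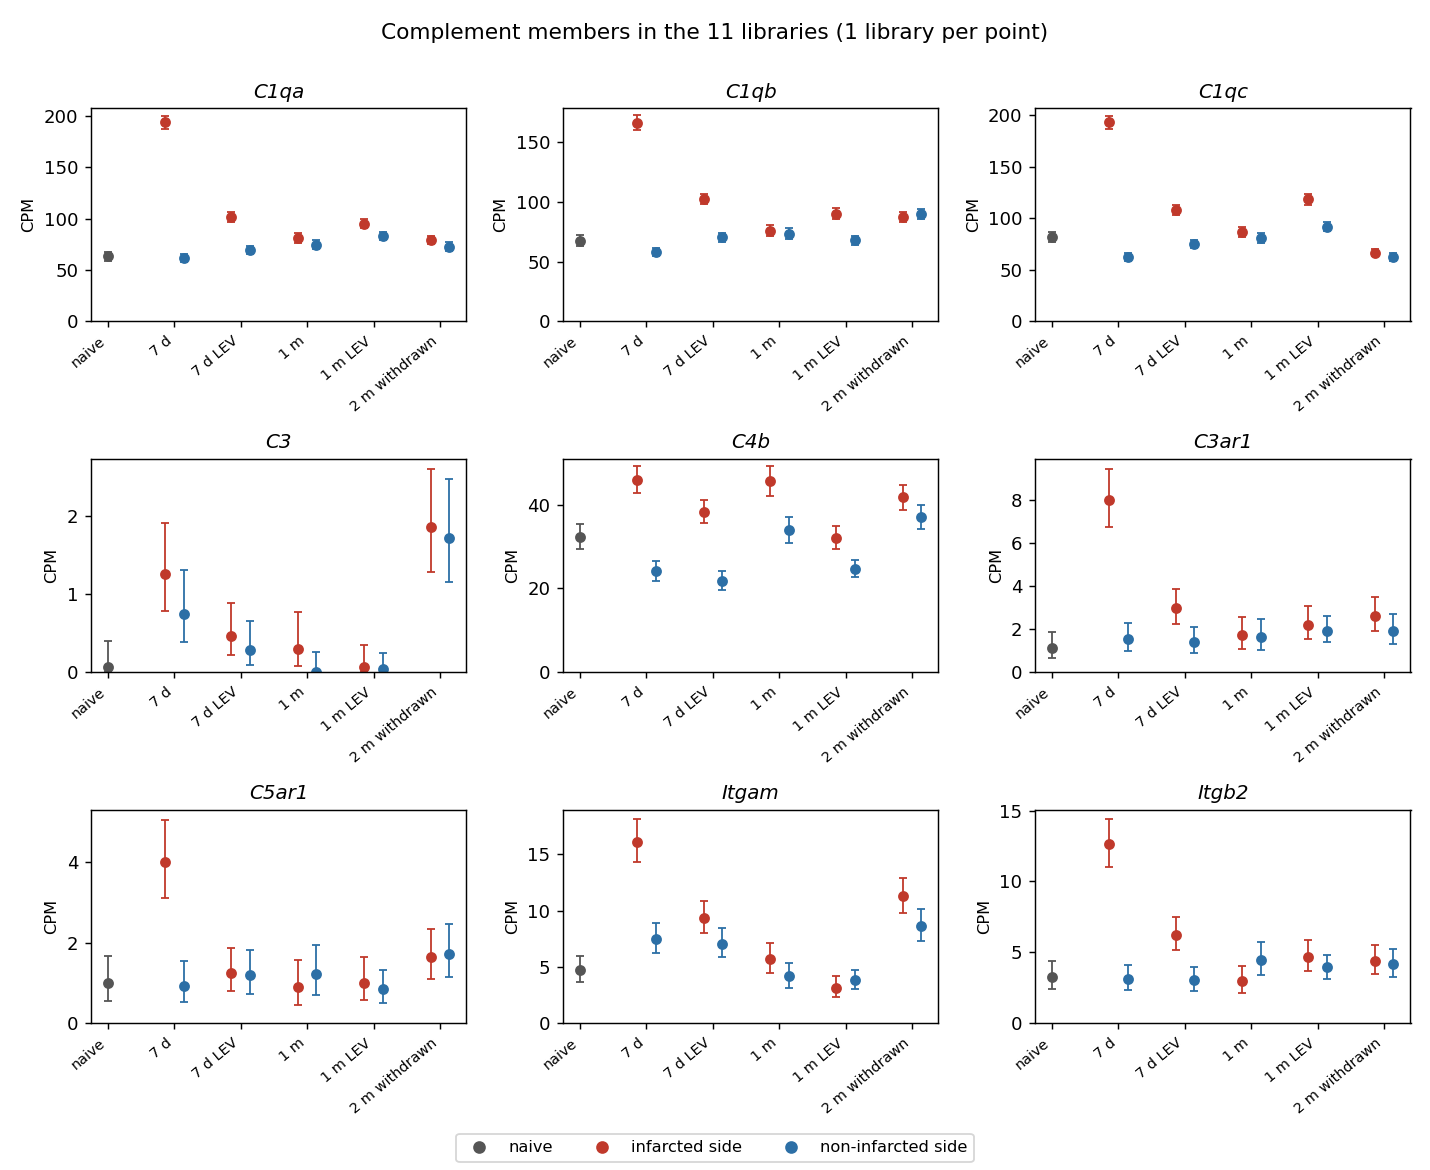
CPM of the 9 complement genes (y axis, linear, from 0, its own scale in each panel) in the naive library and the 5 PT conditions (x axis), with exact 95% Poisson intervals of the counts. Each point is 1 library; the PT 7 d infarcted library is the highest for 8 genes, and the 2 m infarcted library for C3.

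The C1q chains C1qa (ENSMUSG00000036887.5), C1qb (ENSMUSG00000036905.8) and C1qc (ENSMUSG00000036896.5) are neighbours on the minus strand of GRCm38 chromosome 4, at 136895917 to 136898803, 136880129 to 136886187 and 136889804 to 136893065. RefSeq promoter windows (GRCm38.p6; 250 bases before to 50 after a gene's start) matched 6 of the 9 genes, C1qb and C1qc among the C1q chains. The 250 bases before the RefSeq start are shown because both genes were high in the same library. For C1qc that start lies inside the gene span given above, so part of its 250 bases lies within that span. Capitals mark GAGGAA on either strand, the core that the myeloid factor PU.1 binds.

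C1qb promoter, chr4:136886201-136886450, minus strand: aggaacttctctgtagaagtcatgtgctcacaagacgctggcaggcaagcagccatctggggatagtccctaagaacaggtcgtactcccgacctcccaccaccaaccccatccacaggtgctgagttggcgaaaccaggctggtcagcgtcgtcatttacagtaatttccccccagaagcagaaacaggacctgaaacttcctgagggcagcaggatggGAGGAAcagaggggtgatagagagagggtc
C1qc promoter, chr4:136892915-136893164, minus strand: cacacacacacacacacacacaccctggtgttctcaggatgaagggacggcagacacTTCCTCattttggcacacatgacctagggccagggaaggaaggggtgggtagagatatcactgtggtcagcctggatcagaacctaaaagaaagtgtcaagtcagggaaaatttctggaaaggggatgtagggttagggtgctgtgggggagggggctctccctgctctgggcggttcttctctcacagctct

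Each held 1 match, at base -30 and -193 from the RefSeq start, and 28.3% of the 32851 windows held at least 1. The motifs were chosen after the sequences had been seen, and a match is a description, not a site.

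C1qa stood at 63.3 CPM in the naive library. At PT 7 d the infarcted library held 194 CPM and the non-infarcted one 61.2 CPM, and with LEV 101 and 68.9 CPM. At 1 m the values were 80.9 and 74.7 CPM, with LEV 95.2 and 82.6 CPM, and at 2 m 78.8 and 72.7 CPM. The infarcted library of 7 d stood 1.91-fold above the next, that of 7 d with LEV. This second library, at 96.9 to 106 CPM by its counting interval, and the third, 1 m LEV infarcted at 90.4 to 100.1 CPM, had overlapping intervals.

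C1qb stood at 67.5 CPM in the naive library, at 166 and 57.9 CPM (infarcted, then non-infarcted side) at PT 7 d, and at 102 and 70.2 CPM with LEV. It stood at 75.9 and 73.1 CPM at 1 m, 90.2 and 67.7 CPM with LEV, and 87.1 and 89.8 CPM at 2 m. The sides overlapped, and 2 m was the only condition with C1qb lower on the infarcted side.

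C1qc stood at 81.3 CPM in the naive library, at 193 and 62.6 CPM at PT 7 d, and at 108 and 75.0 CPM with LEV. It stood at 86.5 and 80.7 CPM at 1 m, 118 and 91.9 CPM with LEV, and 66.6 and 62.3 CPM at 2 m. Its second highest library was 1 m LEV infarcted, and its lowest were the non-infarcted sides of 2 m and PT 7 d.

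At PT 7 d the ratio of CPM between sides was 3.16 for C1qa (95% counting interval 2.95 to 3.40), 2.87 for C1qb (2.67 to 3.09) and 3.08 for C1qc (2.87 to 3.31). With LEV at 7 d the ratios were 1.47, 1.46 and 1.44. At 1 m they were 1.08, 1.04 and 1.07, and each counting interval included 1.

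The ratio of C1qc to C1qb, which shows unequal change and not relative amount, ranged from 1.05 to 1.36 in the naive, 7 d and 1 m libraries. It was 0.76 and 0.69 in the infarcted and non-infarcted 2 m libraries. The ratio of C1qa to C1qb ranged from 0.81, in the non-infarcted 2 m library, to 1.22.

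C4b (ENSMUSG00000073418.4, chromosome 17, 34728380 to 34743882, minus strand) encodes the classical pathway component that C1 cleaves. It stood at 32.3 CPM in the naive library, at 45.9 and 24.1 CPM (infarcted, then non-infarcted side) at PT 7 d, and at 38.3 and 21.9 CPM with LEV. It stood at 45.6 and 33.9 CPM at 1 m, 32.0 and 24.8 CPM with LEV, and 41.7 and 37.0 CPM at 2 m. On the infarcted side its counting intervals at PT 7 d (42.8 to 49.2 CPM) and 1 m (42.0 to 49.3 CPM) overlapped, which those of the C1q chains did not. On the non-infarcted side both 7 d libraries and that of 1 m with LEV lay below the naive library. Of the 30-base words of its transcript C4b-201, 49.7% also occur in transcripts of its near copy C4a. Within the first 100 bases, where CAGE reads begin, the share was 9.86% for C4b-201, 81.7% for C4b-202 and 57.7% for C4b-203. C4a was not used here, and how reads were assigned to genes is not stated, so reads of C4b and C4a may not be separated.

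C3 (ENSMUSG00000024164.15, chromosome 17, 57203970 to 57228136, minus strand), the component on which all complement pathways converge, was near the limit of detection. It had 1 read in the naive library (0.0714 CPM), 22 and 12 reads at PT 7 d (1.26 and 0.75 CPM) and 9 and 5 reads with LEV (0.47 and 0.28 CPM). At 1 m it had 4 reads on the infarcted side (0.30 CPM) and 0 on the other, which by the limit of 3 reads allows up to 0.215 CPM (the exact 95% interval drawn in the plot of CPM ends at 0.265 CPM). It had 1 read on each side at 1 m with LEV, and 34 and 29 reads at 2 m (1.85 and 1.72 CPM). The side ratio at 7 d was 1.68 with a counting interval of 0.80 to 3.73, so a side difference was not detectable at this depth. The 250 bases before the C3 start are shown because C3 was the member with a different order of libraries. Capitals mark TTGCNNAA on either strand, a motif of C/EBP factors.

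C3 promoter, chr17:57228137-57228386, minus strand: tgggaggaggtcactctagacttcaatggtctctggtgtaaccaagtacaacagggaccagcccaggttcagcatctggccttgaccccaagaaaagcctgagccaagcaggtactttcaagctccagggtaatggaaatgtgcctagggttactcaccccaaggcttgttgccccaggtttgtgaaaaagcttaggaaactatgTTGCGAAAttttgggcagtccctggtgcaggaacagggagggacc

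The C3 window held 1 such match, at base -45, and 10.8% of all windows did. No window of the 6 genes held TTCNNNGAA, the GAS motif of STAT factors, which 8.3% of all windows held. The C3ar1 and C5ar1 windows held none of the 3 motifs.

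C3ar1 (ENSMUSG00000040552.8, chromosome 6, 122847138 to 122856161, minus strand) encodes the receptor of C3a. It stood at 1.14 CPM in the naive library, at 8.00 and 1.56 CPM at PT 7 d, and at 2.97 and 1.41 CPM with LEV. It stood at 1.72 and 1.65 CPM at 1 m, 2.20 and 1.92 CPM with LEV, and 2.62 and 1.90 CPM at 2 m. The naive library was the lowest of the 11, with 16 reads. At PT 7 d the side ratio was 5.14 (counting interval 3.34 to 8.21), and with LEV it was 2.10 (1.29 to 3.51).

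C5ar1 (ENSMUSG00000049130.6, chromosome 7, 16246743 to 16259540, minus strand) encodes the receptor of C5a. It stood at 1.00 CPM in the naive library, at 4.0 and 0.93 CPM at PT 7 d, and at 1.25 and 1.19 CPM with LEV. It stood at 0.90 and 1.22 CPM at 1 m, 1.01 and 0.85 CPM with LEV, and 1.63 and 1.72 CPM at 2 m. Only the PT 7 d infarcted library stood clear of the rest: its counting interval, 3.12 to 5.05 CPM from 70 reads, lay above those of the other 10 libraries, which ended at 2.47 CPM or lower. The side ratio was 4.28 (2.43 to 8.05) at PT 7 d and 1.05 (0.56 to 1.99) with LEV.

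Itgam (ENSMUSG00000030786.18, chromosome 7, 128062640 to 128118491, plus strand) encodes the alpha chain of complement receptor 3, CD11b. It stood at 4.71 CPM in the naive library, at 16.1 and 7.47 CPM at PT 7 d, and at 9.36 and 7.06 CPM with LEV. It stood at 5.68 and 4.16 CPM at 1 m, 3.15 and 3.84 CPM with LEV, and 11.3 and 8.60 CPM at 2 m. The row Gm49368, on the same strand and starting within Itgam at 128062683, had 101% to 123% of the Itgam reads in each library. Reads of these rows cannot be separated, and each Itgam value below may belong to either. The 250 bases before the Itgam start, the gene that passed a test below, hold GAGGAA on either strand at -84 and -15, in capitals, and 1 more match lies after the start.

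Itgam promoter, chr7:128062390-128062639, plus strand: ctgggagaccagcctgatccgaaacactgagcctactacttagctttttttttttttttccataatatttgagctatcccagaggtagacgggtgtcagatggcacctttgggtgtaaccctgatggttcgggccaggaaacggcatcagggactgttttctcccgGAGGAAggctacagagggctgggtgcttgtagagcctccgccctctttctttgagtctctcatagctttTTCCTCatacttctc

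Itgb2 (ENSMUSG00000000290.13, chromosome 10, 77530252 to 77565708, plus strand) encodes the beta chain, CD18, which other leukocyte integrins share. It stood at 3.28 CPM in the naive library, at 12.6 and 3.11 CPM at PT 7 d, and at 6.24 and 3.05 CPM with LEV. It stood at 2.99 and 4.45 CPM at 1 m, 4.66 and 3.93 CPM with LEV, and 4.41 and 4.15 CPM at 2 m. At PT 7 d the side ratio was 4.05 (2.97 to 5.63) for Itgb2 and 2.16 (1.73 to 2.69) for Itgam. The ratio of Itgam to Itgb2 ranged from 0.68 in the 1 m LEV infarcted library to 2.56 in the 2 m infarcted library.

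The comparison of sides asked how the hippocampus of the infarcted hemisphere differed from the other over the 5 conditions. C1qa, C1qc, C4b and C3ar1 stood higher on the infarcted side in 5 of 5 pairs, a pattern of 5.26% of all tested genes. C1qa stood at 110 ± 47.7 CPM (SD, n = 5 libraries) over the infarcted and 72.0 ± 7.84 CPM over the non-infarcted libraries, a log2 difference of 0.53 (SE 0.17). C1qc stood at 114 ± 48.2 and 74.5 ± 12.5 CPM (0.54, SE 0.17). C4b stood at 40.7 ± 5.77 and 28.3 ± 6.66 CPM (0.53, SE 0.09), and C3ar1 at 3.50 ± 2.56 and 1.69 ± 0.22 CPM (0.60, SE 0.21).

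None of the 8 passed by limma with adjustment over all genes, where 0% of genes passed (1221 of 16057 had an unadjusted p under 0.05). The adjusted p was 0.245 for C4b, 0.464 for C1qc, 0.509 for C1qa and 0.549 for C3ar1. C1qb, at 104 ± 35.9 and 71.7 ± 11.6 CPM, differed by 0.49 (SE 0.16) and Itgb2 by 0.48 (SE 0.23), each above 0 in 4 of 5 pairs. Itgam differed by 0.38 (SE 0.14, 4 of 5 pairs) and C5ar1 by 0.25 (SE 0.20, 3 of 5). The median over the 8 was 0.51, against 0.02 over all tested genes, and 6 had an unadjusted p under 0.05. EdgeR called 0 genes. DESeq2 called 15 but gave an adjusted p to 1737 genes, with 0 of the 8 among them, so it says nothing of these genes.

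Without the PT 7 d pair the C1qa difference was 0.25, C1qb 0.24, C1qc 0.27, C3ar1 0.30 and Itgb2 0.16, while C4b was 0.43 and C5ar1 -0.03. Without the PT 1 m pair, C4b passed (0.55, limma adjusted p = 0.0492), in a fit that called 0.311% of all genes, all higher, and no other single pair left out gave a call.

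**Figure D2:**
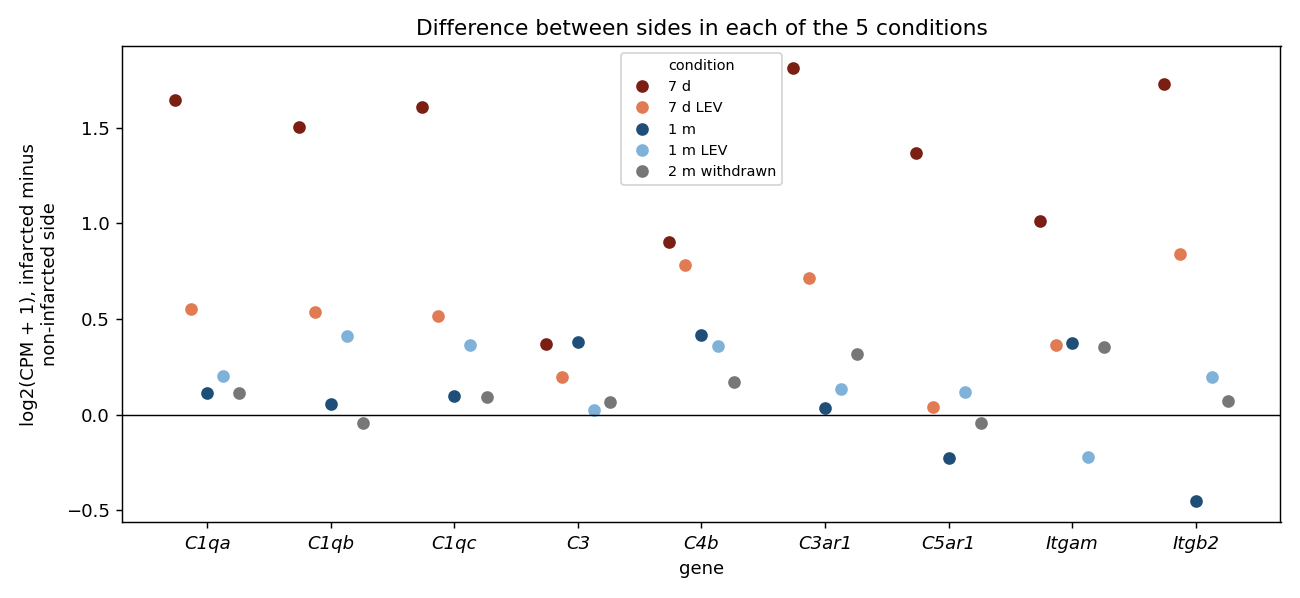
Difference of log2(CPM + 1) between the infarcted and the non-infarcted side (y axis) for each complement gene (x axis), 1 point for each of the 5 conditions. At PT 7 d the 8 tested genes lie between 0.90 and 1.82, and C4b is the gene with 7 d and 7 d LEV close together, at 0.90 and 0.78.

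The side difference itself was compared between 7 d and 1 m over the 4 conditions with and without LEV. Itgb2 had a side difference larger by 1.41 (SE 0.34) at 7 d, C3ar1 by 1.18 (SE 0.32) and C1qa by 0.94 (SE 0.23). C1qc followed at 0.83 (SE 0.25), C1qb at 0.79 (SE 0.25), C5ar1 at 0.76 (SE 0.40), Itgam at 0.61 (SE 0.19) and C4b at 0.45 (SE 0.12). For C5ar1 the side difference was larger at 7 d without LEV but not with LEV, and for the rest it was larger in both. None passed (limma adjusted p from 0.478 to 0.769), as 0% of all genes did, with 1056 genes and 7 of the 8 at an unadjusted p under 0.05. EdgeR and DESeq2 also called 0 genes. The fit had 1 residual degree of freedom.

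As a sum, microglia markers were also highest in the PT 7 d infarcted library. Their summed CPM was 960 in PT 7 d infarcted and 455 to 620 in the other libraries, with 14 of 14 markers higher on the infarcted side at PT 7 d and also with LEV. The median microglia marker differed between sides by 0.62 at PT 7 d and 0.30 with LEV. Relative to the mean microglia marker, the PT 7 d side difference was larger by 1.04 for C3ar1, 0.95 for Itgb2, 0.87 for C1qa, 0.83 for C1qc, 0.73 for C1qb and 0.59 for C5ar1. It was larger by 0.24 for Itgam and 0.13 for C4b. In bulk tissue, more microglia and more RNA per microglial cell cannot be told apart.

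Markers of other cells at PT 7 d are given for the same libraries. Reactive astrocyte markers summed to 833 and 415 CPM on the infarcted and other side (10 of 10 higher), and oligodendrocyte markers to 3873 and 3213 CPM (8 of 8). Border macrophage markers summed to 20.3 and 11 CPM (5 of 7 higher). Activated phagocyte markers summed to 2774 and 1627 CPM (14 of 14 higher), with Spp1 at 48.0 and 5.23 CPM and Gpnmb at 43.1 and 4.61 CPM. Monocyte markers summed to 15 and 8.28 CPM (4 of 5 higher), of which Vcan made up 13.9 and 8.04 CPM. Plac8 stood at 0.86 and 0.25 CPM, Ly6c2 at 0.057 and 0 CPM, and Ccr2 at 0 on both sides. Neutrophil markers summed to 13.5 and 9.22 CPM (5 of 7 higher). Among them S100a8 stood at 5.09 and 3.11 CPM, S100a9 at 4.80 and 3.30 CPM, and Ltf at 0 on both sides. The part of these cells in the complement differences was not tested.

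**Figure D3:**
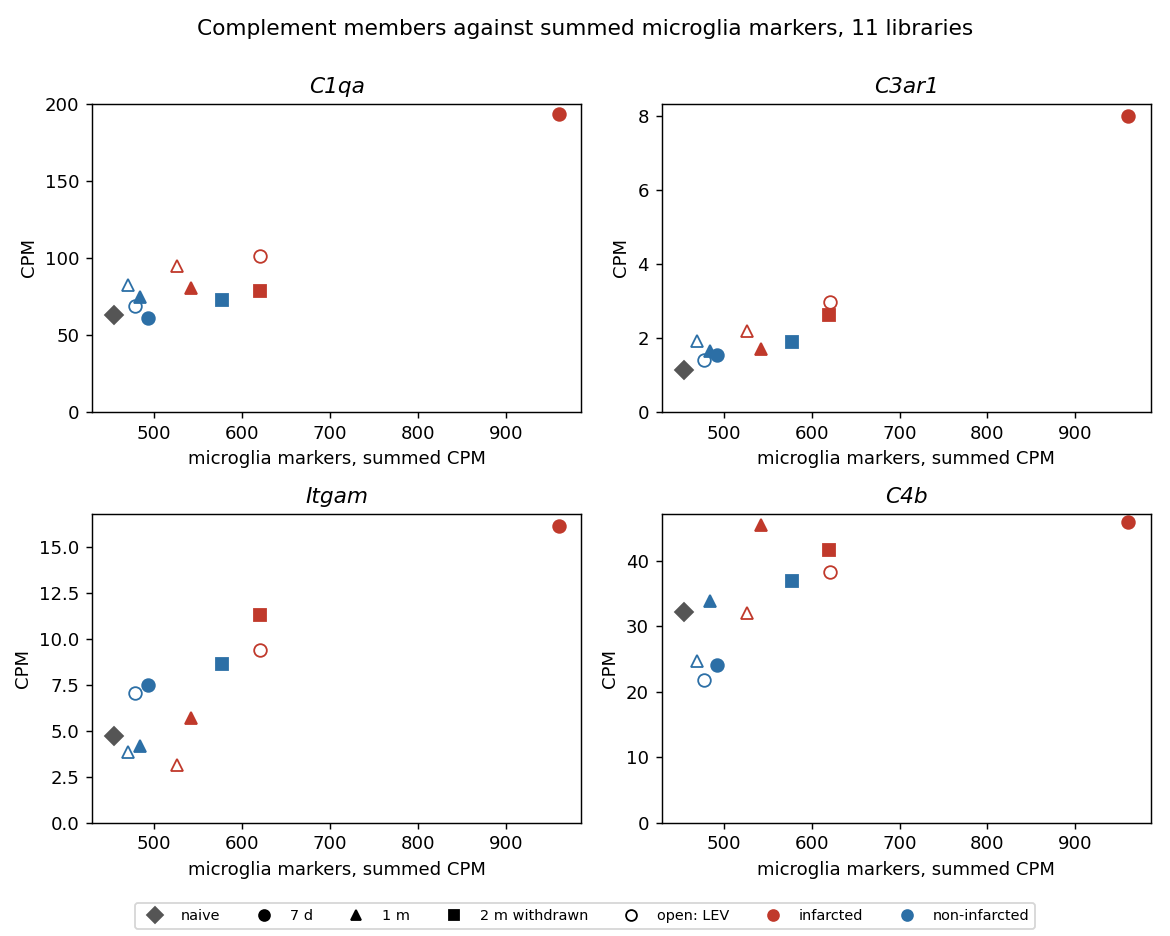
CPM of C1qa, C3ar1, Itgam and C4b (y axes, from 0) against the summed CPM of 14 microglia markers (x axes), 1 point per library. The PT 7 d infarcted library lies at 960 CPM of markers, and the other 10 at 455 to 620 CPM; Itgam lies at 7.06 to 16.1 CPM in 7 d and 2 m libraries and at 3.15 to 5.68 CPM in naive and 1 m libraries.

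The comparison of LEV with no LEV asked what the drug changed after PT. On the infarcted side at 7 d all 8 genes stood lower with LEV, with a median log2(CPM + 1) difference of -0.87, against -0.01 over all tested genes. The ratio of CPM with LEV to that without was 0.31 for C5ar1 (counting interval 0.19 to 0.50), 0.37 for C3ar1 (0.27 to 0.51), 0.49 for Itgb2, 0.52 for C1qa, 0.56 for C1qc, 0.58 for Itgam, 0.62 for C1qb and 0.83 for C4b. These are 2 libraries, with no replicate check. In the same pair the median microglia marker differed by -0.50, their sum was 960 CPM without and 620 CPM with LEV, and that of activated phagocyte markers was 2774 and 2107 CPM. Reactive astrocyte markers summed to 833 and 504 CPM and meningeal fibroblast markers to 112 and 221 CPM. The part of these cells in the difference was not tested. On the non-infarcted side at 7 d the log2 differences ran from -0.13 for C4b to 0.27 for C1qb.

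At 1 m the C1q chains did not stand lower on the infarcted side. With LEV the log2 difference there was 0.45 for C1qc, 0.25 for C1qb, 0.23 for C1qa, 0.24 for C3ar1 and 0.50 for Itgb2. It was -0.50 for C4b and -0.69 for Itgam. C4b and Itgam were lower with LEV in 4 of 4 matched libraries, a pattern of 12.4% of all tested genes.

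Over both times, C4b differed by -0.33 (SE 0.13) and Itgam by -0.39 (SE 0.15). C5ar1 differed by -0.29 (SE 0.19), C3ar1 by -0.22 (SE 0.20), Itgb2 by -0.14 (SE 0.17), C1qa by -0.10 (SE 0.13), C1qb by -0.07 (SE 0.12) and C1qc by 0.01 (SE 0.13). None passed (limma adjusted p from 0.791 to 0.989), where 0.0187% of all genes did, with 980 genes and 2 of the 8 at an unadjusted p under 0.05. Without the PT 7 d infarcted library, C1qa, C1qb, C3ar1, C5ar1 and Itgb2 turned to above 0, at 0.32, 0.30, 0.23, 0.05 and 0.29. In that fit PT 7 d is the non-infarcted side alone, against means of both sides elsewhere. The change of sign therefore also holds a difference between sides.

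Within time points, a fit of the 4 libraries of 1 m alone, added after the data were seen, called C4b lower (-0.47, limma adjusted p = 0.000171) and C1qc higher (0.32, 0.00263). That fit called 23.4% of all genes, so that 2 of 8 was near the background. It takes the 2 sides as replicates of LEV, and as the sides may share animals, its p-values do not measure spread between animals. The 4 libraries of 7 d alone gave no call among the 8. The 1 m LEV libraries also lay lowest on the first principal component.

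The side difference was compared with and without LEV, and none of the 8 passed. With LEV minus without, it changed by -0.62 (SE 0.19) for Itgam, and the others lay between -0.50 for C1qa and -0.09 for C4b (limma adjusted p from 0.611 to 0.96). Over all genes 0.168% passed, and 1 of the 8 had an unadjusted p under 0.05. EdgeR called 46 genes, none of the 8 among them. DESeq2 called 14 and gave an adjusted p to 4 of the 8, none of which passed.

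**Figure D4:**
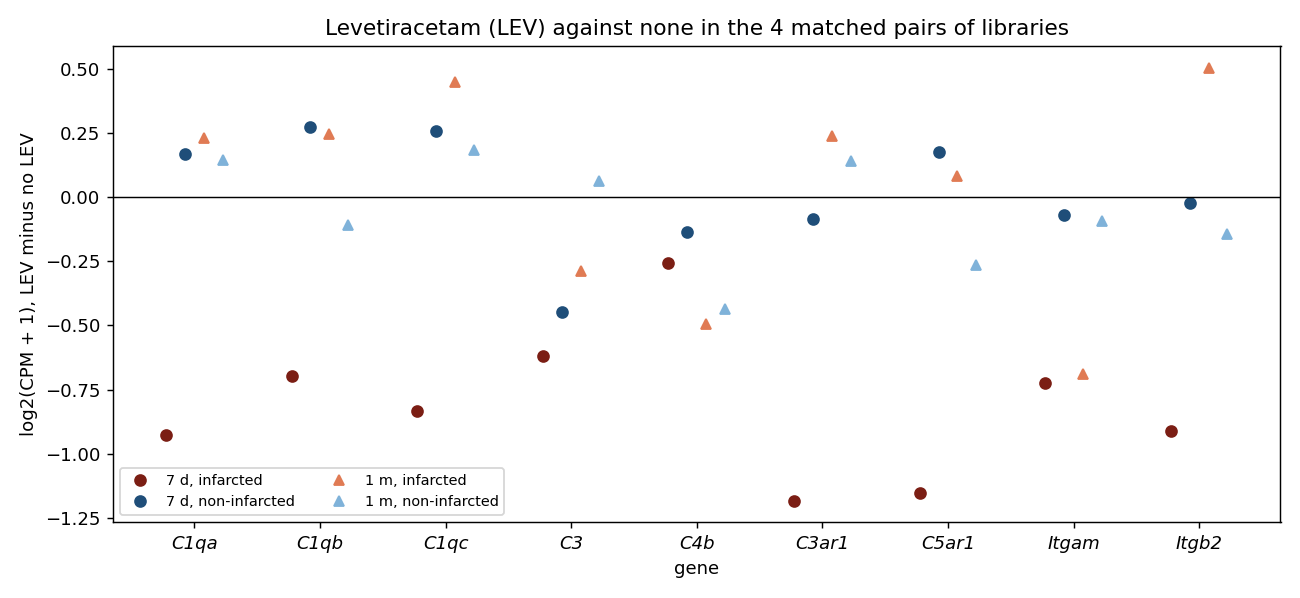
Difference of log2(CPM + 1) with LEV minus without (y axis) for each complement gene (x axis) in the 4 matched pairs of libraries, by time and side. The 7 d infarcted pair is the lowest for each gene but C4b, and all 4 points of C4b and of Itgam lie below 0.

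The comparison of 1 m with 7 d called Itgam. It was lower at 1 m, with a log2 difference of -1.03 (SE 0.15, limma adjusted p = 6.91e-05), in 2 of 2 comparisons of condition means. Over all genes, 10.1% were called lower at 1 m, so that 1 of 8 was near the background. Every 7 d and 2 m library (7.06 to 16.1 CPM) stood above every naive and 1 m library (3.15 to 5.68 CPM), a pattern of 11.9% of tested genes that no other complement gene showed. This is the split of libraries on the first principal component, with the naive library on the 1 m side; its part in the Itgam difference was not tested. Without a filter on low genes the call was lost (adjusted p = 0.0909). Of all calls 917 were higher and 1620 lower, and with TMM scaling 395 and 312.

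The other 7 did not pass: C3ar1 differed by -0.43 (SE 0.20), C5ar1 by -0.40 (SE 0.19), Itgb2 by -0.36 (SE 0.17), C1qb by -0.26 (SE 0.12), C1qa by -0.20 (SE 0.13), C1qc by -0.09 (SE 0.13) and C4b by 0.10 (SE 0.13). On the infarcted side without LEV, the difference of 1 m from 7 d was -1.77 for Itgb2, -1.73 for C3ar1, -1.40 for C5ar1, -1.25 for C1qa, -1.15 for C1qc, -1.12 for C1qb and -0.01 for C4b. On the non-infarcted side without LEV, 7 of the 8 lay above 0, with a median of 0.31. A fit of the infarcted side alone, with and without LEV, called C1qa, C1qb, C3ar1, Itgb2 and Itgam lower at 1 m. These are 5 of 8, where 7.55% of all genes were called lower. With LEV, the CPM ratio of 1 m to 7 d on that side was 0.94 for C1qa, 0.88 for C1qb and 0.74 for C3ar1. It was 0.75 for Itgb2 and 0.34 for Itgam, and the counting intervals of C1qa, C3ar1 and Itgb2 included 1. The median log2 difference over the 8 was -0.22 with LEV and -1.30 without. Without the PT 7 d infarcted library, C1qa, C1qb, C1qc, C3ar1 and Itgb2 lay above 0. That fit sets the non-infarcted side alone at PT 7 d against means of both sides, so it also holds a difference between sides.

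The comparisons with the single naive library were not tested. Genes were counted where they stood higher by a log2 of at least 1 on both sides. At PT 7 d the infarcted side stood above naive by 2.07 for C3ar1, 1.67 for Itgb2, 1.60 for C1qa, 1.58 for Itgam, 1.32 for C5ar1, 1.29 for C1qb, 1.24 for C1qc and 0.50 for C4b. The non-infarcted side differed by -0.41 for C4b, -0.37 for C1qc, 0.26 for C3ar1 and 0.57 for Itgam. The count was 0 of 9 at 7 d, 7 d LEV, 1 m and 1 m LEV, where 0.179%, 0.152%, 0.00447% and 0.188% of all genes of the table were counted.

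At 2 m, 1 of 9 was counted against naive, C3, where 0.371% of all genes were. C3 stood 25.9-fold above naive on the infarcted side (counting interval 4.35 to 1055) and 24.1-fold on the other (3.99 to 984), against 1 naive read. Itgam stood above naive by 1.10 and 0.75 on the log2 scale, and the other 7 lay between -0.38 and 0.75. Against 1 m LEV the 2 m libraries also gave 1 of 9, C3, where 0.871% of all genes were counted, with 34 and 29 reads against 1 and 1. Itgam was higher by 1.57 on the infarcted side (3.58-fold, 2.62 to 4.99) and by 0.99 on the other. C1qc differed by -0.82 and -0.55, CPM ratios of 0.56 and 0.68, while the ratios of C1qb were 0.97 and 1.33. Withdrawal, time and the library split cannot be told apart here. Beside the 2 m values, oligodendrocyte markers summed to 4251 and 4998 CPM at 2 m and 2896 to 3873 CPM in the other libraries, and their part in these values was not tested.

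Genes of the most similar pattern were found by Pearson's r of log2(CPM + 1) over the 11 libraries, among genes of at least 5 CPM. As 1 library was far from the rest, r without PT 7 d infarcted follows each value. For C1qa these were Gusb (0.97, then 0.92) and Tyrobp (0.95, 0.84), for C1qb Trem2 (0.95, 0.86) and H2-D1 (0.94, 0.91). For C1qc they were Tyrobp (0.95, 0.85), Apoc1 (0.94, 0.90) and Gusb (0.94, 0.82), and for C3ar1 Trem2 (0.98, 0.93) and Ctsz (0.98, 0.88). Trem2 and Tyrobp are genes of microglia and phagocytes.

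For Itgb2 the most similar were Spp1 (0.96, 0.85), Cd68 (0.96, 0.84) and Ctsz (0.95, 0.78), and for C5ar1 Fcrls (0.94, 0.72), Capg (0.93, 0.83) and Npc1 (0.93, 0.84). For Itgam they were Cnn3 (0.97, 0.95), Myo10 (0.97, 0.95) and Itgb5 (0.96, 0.94), none of them in the microglia list. For C4b they were Apoe (0.94, 0.93), Klhl40 (0.90, 0.94) and Tmem119 (0.90, 0.87). For C3 they were S100b (0.99, 0.99), Depdc5 (0.98, 0.98) and Plcd4 (0.98, 0.97). Among the members themselves, C1qa and C3ar1 had an r of 0.96 (0.82 without PT 7 d infarcted). Itgam and Itgb2 had 0.59 (0.15), and C3 was nearest to Itgam at 0.84 (0.85).

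Other genes of the pathway came from a list of 54, of which 34 were in the rows used here and 23 were tested. Between sides 19 of 23 lay above 0 (median 0.07) and 0 passed. Serping1, the C1 inhibitor, was among the highest at 0.42 (SE 0.18), and the lowest were Sez6l (-0.07) and C2 (-0.04). With LEV 12 lay above and 11 below 0 and 0 passed, from Megf10, a phagocytic receptor of astrocytes (-0.32), and Csmd3 (-0.22) to C1ra (0.28) and Cd59a (0.31). For the side difference at 7 d against 1 m, 0 passed, with Serping1 at 0.80, Cd59a at -0.16 and Susd4 at -0.10.

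At 1 m against 7 d, 4 of the 23 lay above and 19 below 0 (median -0.27), and 2 passed, both lower, a share near the 10.1% of all genes called lower. Csmd3, of a family of synaptic membrane proteins with complement control repeats, stood at 86.3 CPM in the naive library, 143 to 154 CPM at 7 d, 63.7 to 96.1 CPM at 1 m and 152 to 155 CPM at 2 m (-0.89, limma adjusted p = 6.23e-05). Susd4, a membrane protein of the same repeats, stood at 64.8 CPM in the naive library, 83.5 to 89.9 CPM at 7 d, 58.7 to 67.4 CPM at 1 m and 91.9 to 103 CPM at 2 m (-0.47, limma adjusted p = 0.00842). Like Itgam, both follow the split of the libraries. The highest were C2 (0.51) and Csmd1 (0.33).

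For the side difference with LEV against that without, 11 lay above and 12 below 0, and 2 passed, both higher, of which 1 is described. Of all tested genes 0.168% passed, and 0 genes passed without a filter on low genes or without the mean-variance trend. Vtn, vitronectin, which blocks the membrane attack complex, stood at 87.3 and 41.1 CPM (infarcted, then non-infarcted side) at 7 d with LEV and 37.2 and 42.9 CPM without. At 1 m it stood at 54.4 and 38.0 CPM with LEV and 48.6 and 61.8 CPM without. Over both times the side difference was larger with LEV by 1.06 (limma adjusted p = 0.0336). At 2 m Vtn was also higher on the infarcted side, at 67.6 and 36.8 CPM. In the 7 d LEV and 2 m infarcted libraries meningeal fibroblast markers summed to 221 and 226 CPM, against 94.4 to 149 CPM in the other 9, and their part in these values was not tested. Extremes that did not pass were Colec12 (1.13), Sez6 (-0.27) and Csmd2 (-0.24).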

How the data were processed

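CAGE libraries of 11 hippocampus samples were deposited as 1 table of CPM values per gene, which the authors scaled to each library's total reads. The build GRCm38 and the tools HISAT2 2.0.5, BWA 0.7.17 and DESeq2 1.20.0 are named, without roles, per the submitters' processing notes. The authors' annotation and assignment of reads to genes are not stated there. Multiplied by the library total, 100% of values were whole reads (tolerance 0.01 of a read).

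The main test was limma 3.58.1 (R 4.3.3) on log2(CPM + 1), with a mean-variance trend, over the 16057 of 22377 genes with a mean of at least 1 CPM, Benjamini-Hochberg adjustment and a threshold of 0.05. A pseudocount of 1 understates changes of low genes. Sides were compared over 10 libraries with condition as a block. LEV and time were fitted on 4 condition means, and changes of the side difference on 4 differences, each with 1 residual degree of freedom. In these fits the SE and p of a gene rest mostly on the spread of other genes, which limma shares between genes. Each group held 1 library. Comparisons with naive and of withdrawal with 1 m LEV were made by a fold rule and not tested. Alternatives were other pseudocounts, filters and scalings, libraries left out, and edgeR 4.0.16 and DESeq2 1.42.0 on the recovered reads. The code was tested on simulated data. Counting intervals are exact and of 95%.

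Named genes were the 9 members, pathway genes that passed or were the 2 highest or lowest in a contrast, and the 3 genes of highest r for each member. Some genes that this rule names are not reported here. The members and lists were chosen with earlier results of these data known. IDs were placed on GRCm38 by GENCODE M21, with 9 of 9 members matched by version.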

Additional observations from a re-analysis of the deposited data

Results flagged for a closer look

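The difference of C3ar1 with LEV minus without, in log2(CPM + 1), was -1.18 on the infarcted and -0.084 on the non-infarcted side at 7 d, and 0.24 and 0.14 at 1 m. It drew attention because both sides lay below 0 at 7 d and above 0 at 1 m. Only the 7 d infarcted ratio of CPM, 0.37 (0.27 to 0.51), had a counting interval without 1. On the non-infarcted side at 7 d the ratio was 0.91 (0.50 to 1.65), from 25 reads in each library. At 1 m the ratios were 1.28 (0.74 to 2.27) on the infarcted and 1.16 (0.69 to 2.02) on the non-infarcted side. The difference between the times was not tested.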

How the results depend on the processing

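Of 584 values of 45 results on the complement genes under alternatives, 533 kept their direction and side of the threshold, 41 changed sign, 9 newly passed and 1 no longer passed. The cause was not tested. C3 had no threshold, and its values count among the 533 because they moved by less than the SD of its separate differences. For LEV (log2), C1qa was 0.16 on the non-infarcted side alone and 0.19 at 1 m alone, C1qb 0.081 and 0.068, C3ar1 0.028 and 0.19, and Itgb2 0.18 at 1 m alone. C1qc was -0.0012 with quantile normalization, -0.085 with edgeR, -0.078 with DESeq2, -0.19 on the infarcted side alone and -0.29 at 7 d alone. The 1 m libraries alone, with the sides as replicates, called 2 members. For 1 m against 7 d, the non-infarcted side alone gave C1qa 0.27, C1qb 0.14, C1qc 0.32, C3ar1 0.16 and Itgb2 0.34, and the infarcted side alone gave C4b -0.13 and called 5 members (1213 of 16057 genes lower). Without a filter 0 members were called. At a log2 of 0.5 the fold rule counted 2 members higher at PT 7 d, 2 at 2 m and 2 after withdrawal, where it counted 610, 1488 and 2157 of 22377 genes, and after withdrawal also C1qc lower, among 1405. With a pseudocount of 0.5 it counted 1 at PT 7 d and 2 after withdrawal (74 and 276 genes), and with 5 it counted 0 at 2 m and 0 after withdrawal.

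With 1 pair left out, C5ar1 between sides ran from -0.029 to 0.37, and 0 to 1 members were called. With 1 library left out, LEV ran from -0.51 to 0.32 for C1qa, -0.45 to 0.30 for C1qb, -0.39 to 0.42 for C1qc, -0.68 to 0.23 for C3ar1, -0.63 to 0.053 for C5ar1 and -0.58 to 0.29 for Itgb2. Time ran from -0.61 to 0.21 for C1qa, -0.63 to 0.12 for C1qb and -0.49 to 0.31 for C1qc. It ran from -0.13 to 0.32 for C4b, -0.88 to 0.027 for C3ar1 and -0.79 to 0.072 for Itgb2. For time, 1 to 2 members were called: C1qb passed without the PT 7 d non-infarcted or the 1 m LEV infarcted library. A condition with a library left out kept 1 side, against means of both sides elsewhere. These LEV and time ranges and the C1qb calls therefore also hold a difference between sides.

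Over all genes, the 2537 calls between 1 m and 7 d became 24 without a filter, 707 with TMM, 1695 with quantile normalization, 907 with edgeR, 824 with DESeq2, 4991 over 8 single libraries, and 1061 to 2392 with 1 library left out. The 3 LEV calls became 0 to 62 (3752 at 1 m alone), and the 27 calls for the side difference with LEV 0 (no filter, no trend) to 54. Between sides, 0 became 15 with DESeq2 and 50 without the PT 1 m pair, and for the side difference at 7 d against 1 m, 0 became 1 with quantile normalization. The test of sides pairs the libraries of a condition, and without that block 0 members were called as well. Depth limits C3, C3ar1 and C5ar1, whose libraries held as few as 0, 16 and 12 reads.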
